A study of Mus musculus with 12 samples.

Results

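The receptors, inhibitory Smads, Id target genes and ligands of the ALK1-BMP pathway were examined in lung endothelial cells of mice with an endothelial deletion of Sp1 and Sp3. They comprised 10 of the 28689 genes in the expression table, chosen by name with earlier results of these data known. These were the receptors Acvrl1, Eng and Bmpr2, the inhibitory Smads Smad6 and Smad7, the targets Id1, Id2 and Id3, and the ligands Bmp6 and Gdf3. RNA was sequenced from mouse lung endothelial cells (MLECs) of adult male mice, taken from dissociated lung with beads against CD31, selected again with beads against intercellular adhesion molecule 2 and used within their first passages. The 6 dKO libraries came from VE-CAD-CreERT2+/Sp1 fl/fl/Sp3 fl/fl mice, in which tamoxifen activates a Cre recombinase driven by the VE-cadherin promoter, and the 6 CTR libraries from littermates without the Cre (VE-CAD-CreERT2-/Sp1 fl/fl/Sp3 fl/fl), so both groups carried the floxed alleles and received tamoxifen. The labels call the CTR genotype WT, and how many mice gave each library is not stated, so p-values measure the spread between libraries, which may be technical. Levels are given as FPKM (fragments divided by gene length in kilobases and by library size), a scale per length on which genes can be compared.

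In endothelium, ALK1 (the product of Acvrl1) is the type I receptor for the circulating ligands BMP9 and BMP10. Endoglin (Eng) presents these ligands as a co-receptor, and the type II receptor BMPR2 completes the complex. The receptors phosphorylate Smad1, Smad5 and Smad9, which enter the nucleus with Smad4 and switch on Id genes, whereas Smad6 and Smad7 are induced by the same signal and damp it. Mutations in ACVRL1 and ENG cause hereditary haemorrhagic telangiectasia, and mutations in BMPR2 cause pulmonary arterial hypertension.

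The libraries held between 15523054 and 17938286 fragments on genes. Sp1 was at 21.2 ± 1.77 FPKM in CTR and 10.6 ± 1.53 FPKM in dKO (SD, n = 6), and its log2 fold change was −0.95 (SE 0.09, adjusted p = 5.68e-06 from limma), with no overlap between the groups. Sp3 was at 27.7 ± 2.31 FPKM in CTR and 25.0 ± 1.64 FPKM in dKO (SD, n = 6), and its log2 fold change was −0.14 (SE 0.07, adjusted p = 0.0902 from limma). Over 23 alternative fits Sp3 passed the threshold in 2, with array weights (adjusted p from limma 0.0390) and without CTR replicate 6 (0.0328). The labels were thus borne out by Sp1 and not by Sp3, on values that do not separate deleted from remaining exons. Endothelial markers were present in all libraries, and 11 of 11 were higher in dKO (median log2 fold change 0.83), with a summed level of 206 to 340 FPKM in CTR and 383 to 518 FPKM in dKO and Cdh5 the most abundant. Macrophage markers were also higher in dKO in 10 of 10 cases, with a summed level of 748 to 1306 FPKM in CTR and 2451 to 5601 FPKM in dKO. Fibroblast markers were lower in 3 of 5 cases and higher in 1, with a summed level of 2122 to 2689 FPKM in CTR and 820 to 1645 FPKM in dKO. Both sums were above the endothelial sum in every library, though sums over different genes do not give shares of cells. Over all genes tested, 20.4% were higher and 32.6% lower at the threshold given below. Mesothelial markers were higher in 5 of 6 cases, with a summed level of 28.8 to 38.6 FPKM in CTR and 66.3 to 146 FPKM in dKO, Msln being the most abundant in CTR and Upk1b in dKO. Of 4 lymphatic endothelial markers 2 were higher. Lyve1, most of the sum of the 4 (86.2 to 160 FPKM in CTR, 109 to 217 FPKM in dKO), did not pass the threshold. Of 7 mural markers 2 were higher. Acta2, most of the sum of the 7 (509 to 1427 FPKM in CTR, 464 to 849 FPKM in dKO), did not pass it. Rgs5, a mural marker that was higher, was at 0.391 to 1.65 FPKM in CTR and 0.864 to 3.94 FPKM in dKO. It reached 1 FPKM mainly in dKO libraries. The part of these cells in the members' levels was not tested. Retina markers stayed at or below 0.329 FPKM in every library, Rcvrn being the most abundant. In bulk RNA of this kind, fewer cells of a type and less RNA per cell cannot be told apart.

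Of the 9 members tested, 7 were higher in dKO than in CTR MLECs, 0 were lower and 2, Bmpr2 and Id3, did not pass the threshold. The test was limma on log2(FPKM + 1) over 12467 genes, those that reached 1 FPKM in 6 or more of the 12 libraries, and a gene was called at a Benjamini-Hochberg adjusted p under 0.05. Over all genes tested, 20.4% were called higher and 32.6% lower (53.1% in either direction). As the members were chosen with earlier results of these data known, setting their counts beside such shares is a description. With median-of-ratios scaling of the libraries these shares were 25.5% and 24.5% and the members' count was again 7. The call of Smad6 was lost in 11 of 22 alternative fits, which left 6 members called in those. The median log2 fold change was 0.61 for the 9 members and −0.10 for all genes tested. All dKO libraries lay above all CTR libraries for 5 of the 9 (Eng, Smad7, Id1, Id2 and Bmp6), as they did for 11.3% of the genes tested (27.4% did not overlap in either direction). None of the 9 had a log2 fold change over 1.5, a size that together with the adjusted p was reached by 1.98% of all genes tested. Gdf3 had been picked for its near absence in CTR and reached 1 FPKM in 4 libraries, so it is described without a test.

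**Figure D1:**
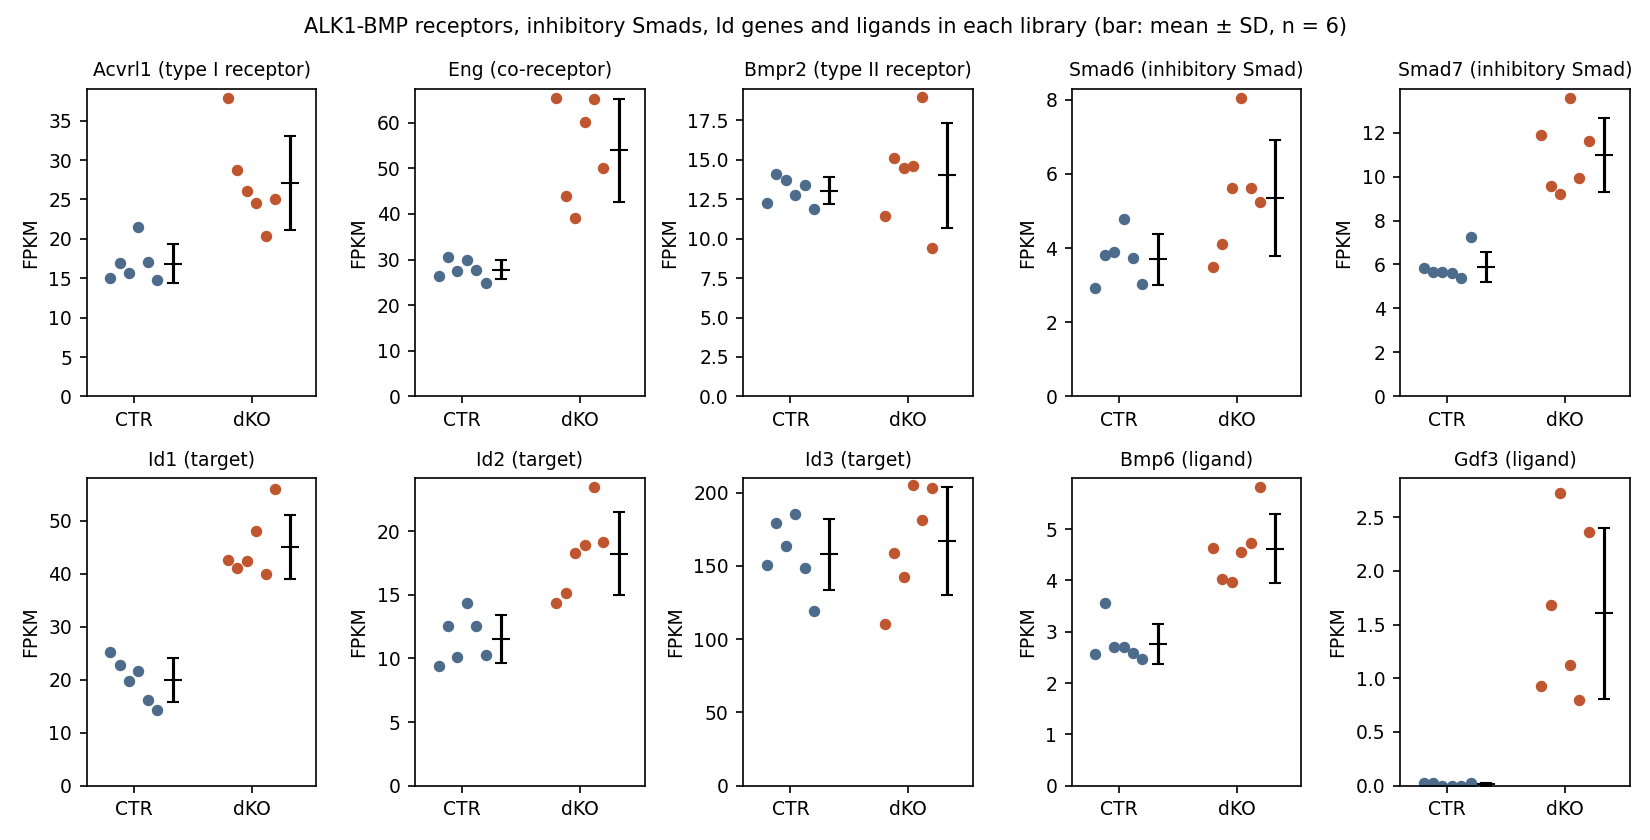
FPKM of each of the 10 genes in the 6 CTR (blue) and 6 dKO (orange) libraries, with the mean and SD of each group as a black bar and a separate vertical scale, starting at 0, for each gene. The groups do not overlap for Eng, Smad7, Id1, Id2, Bmp6 and Gdf3, whereas the dKO values of Bmpr2 and Id3 lie on both sides of the CTR values.

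Sp1 and Sp3 bind GC boxes, so the promoters of the members were searched for GGGCGG on both strands within 250 bases upstream of the canonical annotated start. At least 1 box was found for 7 of the 10 members, compared with 43.3% of 17366 protein-coding genes of the table and 50.6% of the 11315 of them that were tested. The number of boxes was 4 for Smad6, 3 for Bmpr2, 2 for Smad7, 1 each for Acvrl1, Id1, Bmp6 and Gdf3, and 0 for Eng, Id2 and Id3. The palindrome GGCGCC, a site for the BMP-activated Smads that may share bases with a GC box, was present in 1 of the 10 windows, that of Bmpr2, and in 11% of the protein-coding genes. The windows of Acvrl1, Eng, Smad6 and Bmp6 hold part of an exon of another transcript of the same gene. The letters of these windows are a description only, and binding was not measured here.

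The windows of the 3 Id genes, of which 2 were called higher and 1 was not, and those of Bmpr2, which was not called, and Gdf3, which differed most, are shown from 5′ to 3′ on the strand of the gene, as read from GRCm39. Capitals mark GGGCGG or its complement CCGCCC.
Id1 (chr2:152577915-152578164, plus strand): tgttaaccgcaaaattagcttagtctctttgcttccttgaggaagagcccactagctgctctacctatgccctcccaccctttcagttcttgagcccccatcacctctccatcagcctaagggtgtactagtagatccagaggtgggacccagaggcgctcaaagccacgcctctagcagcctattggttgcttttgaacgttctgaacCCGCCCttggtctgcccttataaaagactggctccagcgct
Id2 (chr12:25147283-25147532, minus strand): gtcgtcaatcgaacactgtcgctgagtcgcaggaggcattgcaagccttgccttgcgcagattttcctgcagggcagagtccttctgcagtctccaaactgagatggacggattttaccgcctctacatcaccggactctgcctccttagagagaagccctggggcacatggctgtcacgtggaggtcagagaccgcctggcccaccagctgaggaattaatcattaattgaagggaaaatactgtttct
Id3 (chr4:135870558-135870807, plus strand): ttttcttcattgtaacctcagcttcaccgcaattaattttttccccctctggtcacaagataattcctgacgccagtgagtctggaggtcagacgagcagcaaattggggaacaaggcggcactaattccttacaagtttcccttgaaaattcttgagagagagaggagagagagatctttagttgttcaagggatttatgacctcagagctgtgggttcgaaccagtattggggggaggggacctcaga
Bmpr2 (chr1:59802294-59802543, plus strand): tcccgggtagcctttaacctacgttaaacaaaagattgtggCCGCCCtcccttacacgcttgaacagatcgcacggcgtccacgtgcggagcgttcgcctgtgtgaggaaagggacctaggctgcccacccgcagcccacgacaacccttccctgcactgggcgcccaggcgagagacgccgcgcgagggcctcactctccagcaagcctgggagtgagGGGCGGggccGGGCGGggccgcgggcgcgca
Gdf3 (chr6:122587198-122587447, minus strand): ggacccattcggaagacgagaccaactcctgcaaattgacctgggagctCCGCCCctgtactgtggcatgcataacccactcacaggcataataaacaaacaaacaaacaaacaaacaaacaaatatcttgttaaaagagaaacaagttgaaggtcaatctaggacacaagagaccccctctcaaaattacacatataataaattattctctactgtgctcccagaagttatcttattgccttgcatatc
The Id1 window carries its single box close to the start, and those of Id2 and Id3 carry none. The Bmpr2 window, with 67.6% G and C, holds 2 of its 3 boxes side by side next to the start, and its level did not pass the test. The Gdf3 window, with 40.8% G and C, holds 1 box far from the start.

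Among the receptors, the RNAs of endoglin and ALK1 were higher in dKO MLECs and that of BMPR2 did not pass the test. Eng (chr2:32535543-32574661, as all positions in GRCm39) ranged over 24.9 to 30.5 FPKM in CTR (median 27.5) and 39.0 to 65.3 FPKM in dKO (median 55.0). The lowest dKO library was above the highest CTR library, and dKO replicates 1, 5 and 4 were the highest. The means were 27.8 ± 2.11 FPKM in CTR and 53.9 ± 11.2 FPKM in dKO (SD, n = 6), and the log2 fold change was 0.91 (SE 0.12, adjusted p = 6.69e-05 from limma). The exons of Eng share 860 of 7798 bases with Fpgs on the opposite strand, and Fpgs was at 6.68 ± 1.09 FPKM in CTR and 4.14 ± 0.609 FPKM in dKO (SD, n = 6). Whether strand was used in counting is not stated.

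Acvrl1 (chr15:101025996-101043217) ranged over 14.8 to 21.5 FPKM in CTR (median 16.3) and 20.3 to 37.9 FPKM in dKO (median 25.6). In 5 of the 6 dKO libraries it was above all CTR libraries, and dKO replicate 5 lay just below CTR replicate 4. The means were 16.8 ± 2.48 FPKM in CTR and 27.1 ± 5.92 FPKM in dKO (SD, n = 6), and the log2 fold change was 0.64 (SE 0.13, adjusted p = 0.00120 from limma). The dKO replicate 1 library, at 37.9 FPKM, stood above the others, and without it the difference was still called.

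Bmpr2 (chr1:59802544-59918173) ranged over 11.9 to 14.1 FPKM in CTR (median 13.1) and 9.40 to 19.0 FPKM in dKO (median 14.5). The dKO libraries spread to both sides of the CTR libraries, 4 above all of them and 2 below all of them. The log2 fold change was 0.07 (SE 0.13, adjusted p = 0.671 from limma), with a 95% interval of −0.21 to 0.35. The upper end of this interval is below the fold changes estimated for Eng and Acvrl1, and whether the changes differ was not tested. Within a library, the ratio of Eng to Bmpr2 was 1.99 to 2.34 in CTR and 2.7 to 5.72 in dKO without overlap, and the ratio of Acvrl1 to Bmpr2 was 1.14 to 1.69 in CTR and 1.07 to 3.31 in dKO with overlap. These ratios do not depend on the scaling between libraries, and no test was made on them.

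Of 10 other BMP receptors and co-receptors, 7 were abundant enough to be tested, of which 1 was higher, 3 were lower and 3 were not called (median log2 fold change −0.32). For this and the later pathway lists, the shares over all genes tested were 20.4% higher and 32.6% lower. Bmpr1a, a type I receptor for BMP2 and BMP4, was at 24.7 ± 1.23 FPKM in CTR and 17.6 ± 2.47 FPKM in dKO (SD, n = 6), and its log2 fold change was −0.48 (SE 0.08, adjusted p = 0.000448 from limma). Acvr2a, a type II receptor for activins and BMPs, was at 15.2 ± 1.08 FPKM in CTR and 10.7 ± 1.27 FPKM in dKO (SD, n = 6), and its log2 fold change was −0.48 (SE 0.08, adjusted p = 0.000266 from limma). For both, all dKO libraries lay below all CTR libraries. Bmpr1b, another BMP type I receptor, was low at 1.74 ± 0.712 FPKM in CTR and 0.697 ± 0.328 FPKM in dKO (SD, n = 6) and fell, its log2 fold change being −0.67 (SE 0.17, adjusted p = 0.00606 from limma). It reached 1 FPKM in 5 CTR libraries and 1 dKO library, mostly the group where it is high, and it fell below the filter in 7 of 23 alternative fits, with a filter of 5 FPKM and without CTR replicates 1, 2, 3, 5 or 6 or dKO replicate 1, so that no call was made there. At this level its log2 fold change depends on the pseudocount and was −1.30 with a pseudocount of 0.01. The co-receptor Rgmb was the one that rose, by 0.52 (SE 0.13, adjusted p = 0.00494 from limma) on the log2 scale. The 3 receptors that fell are expressed in many cell types, and in these cultures 3 of 5 tested fibroblast markers also fell and 1 rose, with a summed level of 2122 to 2689 FPKM in CTR and 820 to 1645 FPKM in dKO and Col1a1 the most abundant. The part of fibroblasts in the receptor levels was not tested.

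Both inhibitory Smads, which block receptor signalling in a negative feedback, were higher in dKO MLECs. Smad7 (chr18:75500374-75529006), which acts on BMP and TGF-β receptors, ranged over 5.38 to 7.26 FPKM in CTR (median 5.66) and 9.22 to 13.6 FPKM in dKO (median 10.8). All 6 dKO libraries were above all CTR libraries, of which replicate 6 was the highest. The means were 5.90 ± 0.682 FPKM in CTR and 11 ± 1.68 FPKM in dKO (SD, n = 6), and the log2 fold change was 0.79 (SE 0.10, adjusted p = 3.08e-05 from limma).

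Smad6 (chr9:63860341-63929793), which acts mainly on BMP receptors, ranged over 2.92 to 4.79 FPKM in CTR (median 3.77) and 3.50 to 8.04 FPKM in dKO (median 5.43). In 4 of the 6 dKO libraries it was above all CTR libraries, and dKO replicates 1 and 2 lay within the CTR range. The means were 3.70 ± 0.679 FPKM in CTR and 5.36 ± 1.57 FPKM in dKO (SD, n = 6), and the log2 fold change was 0.41 (SE 0.15, adjusted p = 0.0352 from limma). This call was lost in 11 of 22 alternative fits, among them 9 of the 12 that left out 1 library, with adjusted p from limma between 0.0501 and 0.0730 in those 11, and the log2 fold change stayed between 0.30 and 0.51 over all 22. Smad6 rested on 163 to 462 fragments per library, with only Bmp6 as thinly covered among the tested members (164 to 377). The ratio of Smad7 to Smad6 was 1.18 to 2.40 in CTR and 1.64 to 3.40 in dKO libraries.

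All 10 other Smads and Smad regulators on the list were tested, with 2 higher, 3 lower and 5 not called, near the 20.4% higher and 32.6% lower over all genes tested. Smad5, which carries the BMP signal, was at 18.4 ± 1.22 FPKM in CTR and 13.2 ± 1.72 FPKM in dKO (SD, n = 6) without overlap, and its log2 fold change was −0.45 (SE 0.08, adjusted p = 0.000521 from limma). Ski, a co-repressor that binds Smads, was at 33.1 ± 0.895 FPKM in CTR and 42.7 ± 3.09 FPKM in dKO (SD, n = 6) without overlap, and its log2 fold change was 0.35 (SE 0.06, adjusted p = 0.000232 from limma). Smurf1, a ubiquitin ligase for Smads and BMP receptors, rose by 0.38 (SE 0.09, adjusted p = 0.00392 from limma). Smaller decreases were called for the phosphatase Ppm1a, at −0.22 (SE 0.06, adjusted p = 0.00752 from limma), and the ubiquitin ligase Smurf2, at −0.21 (SE 0.07, adjusted p = 0.0204 from limma), and both calls were lost with median-of-ratios scaling (adjusted p of 0.0744 and 0.124 from limma). Smad1 and Smad4, named here outside the rule for their place in the pathway, were not called, with log2 fold changes of −0.01 (SE 0.09, adjusted p = 0.918) and −0.12 (SE 0.06, adjusted p = 0.124) in limma.

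The Id genes are direct targets of BMP signalling, and their products bind E proteins and keep them from DNA. Of the 3 members, Id1 and Id2 were higher in dKO MLECs and Id3 did not pass the test. Id1 (chr2:152566218-152579544) ranged over 14.3 to 25.2 FPKM in CTR (median 20.7) and 40.0 to 56.0 FPKM in dKO (median 42.6). The groups did not overlap, with the lowest dKO library, replicate 5, above the highest CTR library, replicate 1. The means were 19.99 ± 4.11 FPKM in CTR and 45.1 ± 6.05 FPKM in dKO (SD, n = 6), and the log2 fold change of 1.15 (SE 0.13, adjusted p = 1.71e-05 from limma) was the largest among the tested members.

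Id2 (chr12:25143798-25147282) ranged over 9.39 to 14.3 FPKM in CTR (median 11.4) and 14.4 to 23.4 FPKM in dKO (median 18.6). The groups did not overlap, but dKO replicate 1 and CTR replicate 4 were nearly equal. The means were 11.5 ± 1.90 FPKM in CTR and 18.2 ± 3.26 FPKM in dKO (SD, n = 6), and the log2 fold change was 0.61 (SE 0.12, adjusted p = 0.00119 from limma).

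Id3 (chr4:135870808-135873066), the most abundant of all members, ranged over 119 to 186 FPKM in CTR (median 157) and 110 to 205 FPKM in dKO (median 170). The groups overlapped, with 2 dKO libraries above and 1 below all CTR libraries. The means were 158 ± 24.1 FPKM in CTR and 167 ± 37.0 FPKM in dKO (SD, n = 6), and the log2 fold change was 0.06 (SE 0.15, adjusted p = 0.747 from limma) with a 95% interval of −0.27 to 0.39. Id1 made up 9.14% to 13.6% (median 10.1%) of the summed FPKM of the 3 Id genes in CTR and 16.3% to 25.5% (median 19.6%) in dKO libraries. Id3 exceeded Id1 by a factor of 5.98 to 9.17 in CTR and 2.59 to 4.54 in dKO libraries. Neither measure overlapped between the groups, and no test was made on them. Genes on the opposite strand share 243 exon bases with Id1, 466 and 796 with Id2 and 212 with Id3, and none of them has a row in the table.

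The E proteins, the partners of Id proteins, were all tested, and 2 of 3 were lower. Tcf12 was at 16.6 ± 2.03 FPKM in CTR and 11.3 ± 0.884 FPKM in dKO (SD, n = 6), and its log2 fold change was −0.52 (SE 0.08, adjusted p = 0.0002 from limma). Tcf3 was at 22.6 ± 2.12 FPKM in CTR and 16.2 ± 1.51 FPKM in dKO (SD, n = 6), and its log2 fold change was −0.45 (SE 0.08, adjusted p = 0.000362 from limma). Neither overlapped between the groups. Tcf4, the remaining one, named outside the rule, was not called at −0.06 (SE 0.07, adjusted p = 0.483 from limma). Id genes are also known from dividing cells, and proliferation markers were lower in dKO in 6 of 7 cases, with a summed level of 59.2 to 192 FPKM in CTR and 48.0 to 67.9 FPKM in dKO, Top2a being the most abundant in CTR and Mki67 in dKO. Their part in the Id levels was not tested.

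Bmp6 (chr13:38529065-38684280), a BMP ligand that liver endothelium makes to control iron uptake, ranged over 2.47 to 3.55 FPKM in CTR (median 2.64) and 3.97 to 5.82 FPKM in dKO (median 4.59). All dKO libraries were above all CTR libraries, of which replicate 2 was the highest. The means were 2.76 ± 0.397 FPKM in CTR and 4.62 ± 0.667 FPKM in dKO (SD, n = 6), and the log2 fold change was 0.58 (SE 0.09, adjusted p = 0.000198 from limma). Its exons share 226 of 3920 bases with Txndc5 on the opposite strand, which was at 88.1 ± 7.35 FPKM in CTR and 63.7 ± 3.72 FPKM in dKO (SD, n = 6).

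Gdf3 (chr6:122582317-122587197), a TGF-β family ligand known from pluripotent cells and macrophages, was close to absent in CTR and present at a low level in all dKO libraries. The CTR libraries held 1, 1, 0, 0, 0 and 1 fragments and the dKO libraries 35, 72, 116, 49, 34 and 95 fragments, in the order of replicates 1 to 6. In FPKM the dKO libraries ranged from 0.801 to 2.73, where 1 fragment is worth 0.0230 to 0.0266 FPKM. Summed over the groups, 3 and 401 fragments gave a ratio of 133 per library total, with an exact 95% interval of 45.3 to 649 that covers counting error only. As Gdf3 was picked for its absence in CTR, the ratio is a description. Leaving out each library in turn moved this ratio between 111 and 167.

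Macrophage markers moved with Gdf3 between the groups. All 10 were higher in dKO, with log2 fold changes of 0.67 to 3.66 (median 1.83). Their summed level was 748 to 1306 FPKM in CTR and 2451 to 5601 FPKM in dKO. None of them was at 0, and Lyz2 was the most abundant. Among dKO libraries the summed level was highest in replicate 3 and next in replicate 6, which also held the most Gdf3 fragments, and lowest in replicate 5, which held the fewest. The order differed for replicates 1, 2 and 4, which ranked 4, 5 and 3 for the marker sum and 5, 3 and 4 for Gdf3. Lyz2 is the largest part of this sum, and single markers gave other orders. C1qc, named outside the rule after its values were seen, ranked the dKO libraries as Gdf3 did. The other markers did not, so nothing is read from this match. In CTR libraries, where macrophage markers were present at a lower level, the 3 Gdf3 fragments fell on replicates 1, 2 and 6. Their marker sums of 973, 882 and 748 FPKM were the lowest of the group. Counts of 0 and 1 fragment cannot order libraries, so nothing is read from this. The part of macrophages in the Gdf3 level was not tested. Nanog and Dppa3, pluripotency genes next to Gdf3 on the chromosome and named outside the rule, were near absent in both groups, and Dppa3, which shares 184 exon bases with Gdf3 on the opposite strand, was at 0.0324 FPKM in CTR and 0.121 FPKM in dKO.

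**Figure D2:**
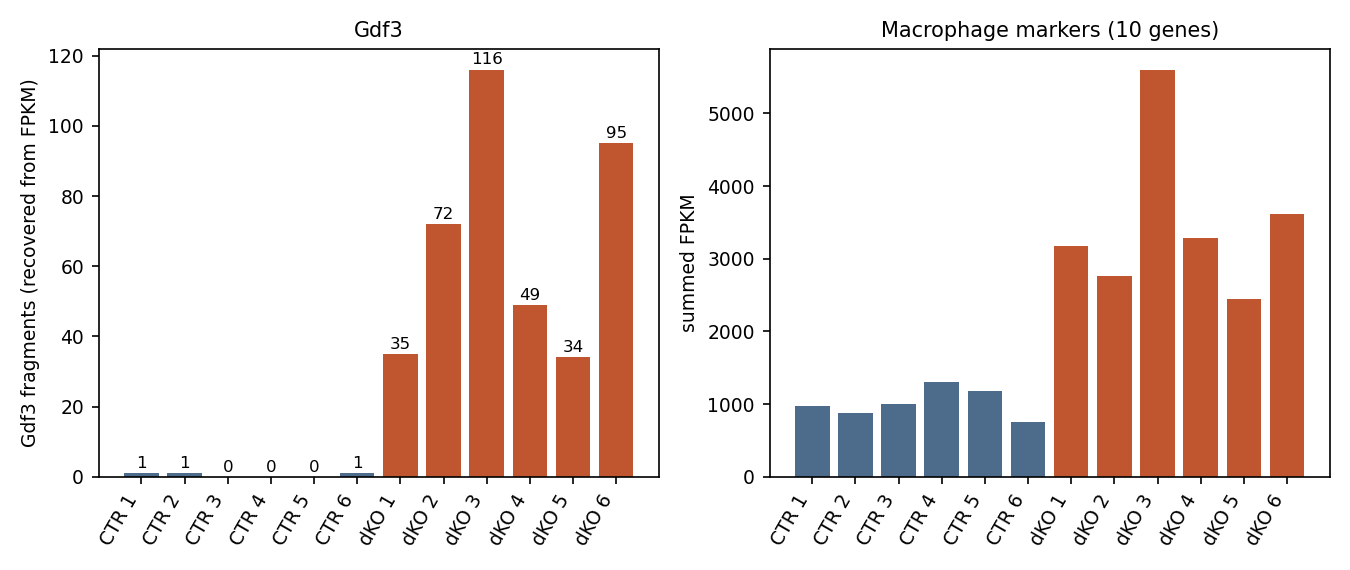
Gdf3 fragments recovered from the FPKM values (left) and the summed FPKM of 10 macrophage markers (right) in each of the 12 libraries, CTR in blue and dKO in orange. Gdf3 was at 0 or 1 fragment in the CTR libraries and at 34 to 116 in the dKO libraries, and the marker sum was 748 to 1306 FPKM in CTR and 2451 to 5601 FPKM in dKO, both highest in dKO replicate 3.

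Of 14 other BMP ligands, 8 were tested, of which 4 were higher, 0 were lower and 4 were not called (median log2 fold change 0.59). Bmp2 was at 6.74 ± 1.12 FPKM in CTR and 16.5 ± 1.27 FPKM in dKO (SD, n = 6), and its log2 fold change was 1.19 (SE 0.09, adjusted p = 1.43e-06 from limma). Bmp4 was at 5.52 ± 1.11 FPKM in CTR and 12.9 ± 1.79 FPKM in dKO (SD, n = 6), and its log2 fold change was 1.10 (SE 0.12, adjusted p = 1.68e-05 from limma). Neither overlapped between the groups, and both were called in every alternative fit in which they were tested. Bmp8a, which is among the 4, was low, at 0.336 ± 0.124 FPKM in CTR and 1.83 ± 0.425 FPKM in dKO (SD, n = 6). It reached 1 FPKM in 6 dKO libraries and 0 CTR libraries, so it was tested only through the dKO libraries, and passing the filter already required a difference. Without it, 3 of 7 ligands were higher and the median log2 fold change was 0.24. Its own log2 fold change is a description, at 1.07 with a pseudocount of 1 and 2.44 with a pseudocount of 0.01. The circulating ALK1 ligands themselves, Gdf2 (BMP9) and Bmp10, named outside the rule, were near absent, with 5 and 26 fragments on Gdf2 and 13 and 14 fragments on Bmp10 in the 6 CTR and the 6 dKO libraries together.

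Of 12 other endothelial genes that respond to BMP signalling, 9 were tested, of which 5 were higher, 0 were lower and 4 were not called (median log2 fold change 0.52). Gja5, the arterial connexin 40, was at 3.48 ± 2.34 FPKM in CTR and 9.07 ± 2.85 FPKM in dKO (SD, n = 6), and its log2 fold change was 1.23 (SE 0.30, adjusted p = 0.00410 from limma). Efnb2, the arterial marker ephrin-B2, was at 7.10 ± 1.07 FPKM in CTR and 15.6 ± 2.87 FPKM in dKO (SD, n = 6), and its log2 fold change was 1.03 (SE 0.11, adjusted p = 1.34e-05 from limma). Hes1, a repressor that is also a Notch target, was at 9.31 ± 1.18 FPKM in CTR and 15.9 ± 2.03 FPKM in dKO (SD, n = 6), and its log2 fold change was 0.71 (SE 0.10, adjusted p = 6.67e-05 from limma). The groups did not overlap for Efnb2 and Hes1, and for Gja5 5 of the 6 dKO libraries were above all CTR libraries.

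Of 15 BMP antagonists and modulators, 12 were tested, of which 2 were higher, 3 were lower and 7 were not called. Crim1, a membrane protein that binds BMPs, was at 28.6 ± 3.0 FPKM in CTR and 50.2 ± 8.74 FPKM in dKO (SD, n = 6) without overlap, and its log2 fold change was 0.78 (SE 0.11, adjusted p = 0.000114 from limma). The antagonist Nbl1 rose by 0.69 (SE 0.24, adjusted p = 0.0252 from limma) on the log2 scale, and this call was lost in 5 of 23 alternative fits, 4 of which left out 1 library each (CTR replicates 1 or 3, dKO replicates 4 or 6). Bmper, an endothelial modulator of BMP4, was lower with a log2 fold change of −0.49 (SE 0.10, adjusted p = 0.00156 from limma). Twsg1, a chordin partner, and the protease Htra1 had log2 fold changes of −0.37 (SE 0.12, adjusted p = 0.0212) and −0.36 (SE 0.12, adjusted p = 0.0237) in limma, and both calls were lost with median-of-ratios scaling, that of Htra1 also without dKO replicate 3 and without dKO replicate 5. Over the 6 lists, 49 of 64 genes were tested. Leaving out Bmp8a, 13 of the other 48 were higher, 11 lower and 24 not called, with a median log2 fold change of −0.02. With median-of-ratios scaling 13 were higher and 7 lower, which moved the higher share of calls from 54.2% to 65.0%, while over all genes it moved from 38.5% to 51.0%.

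**Figure D3:**
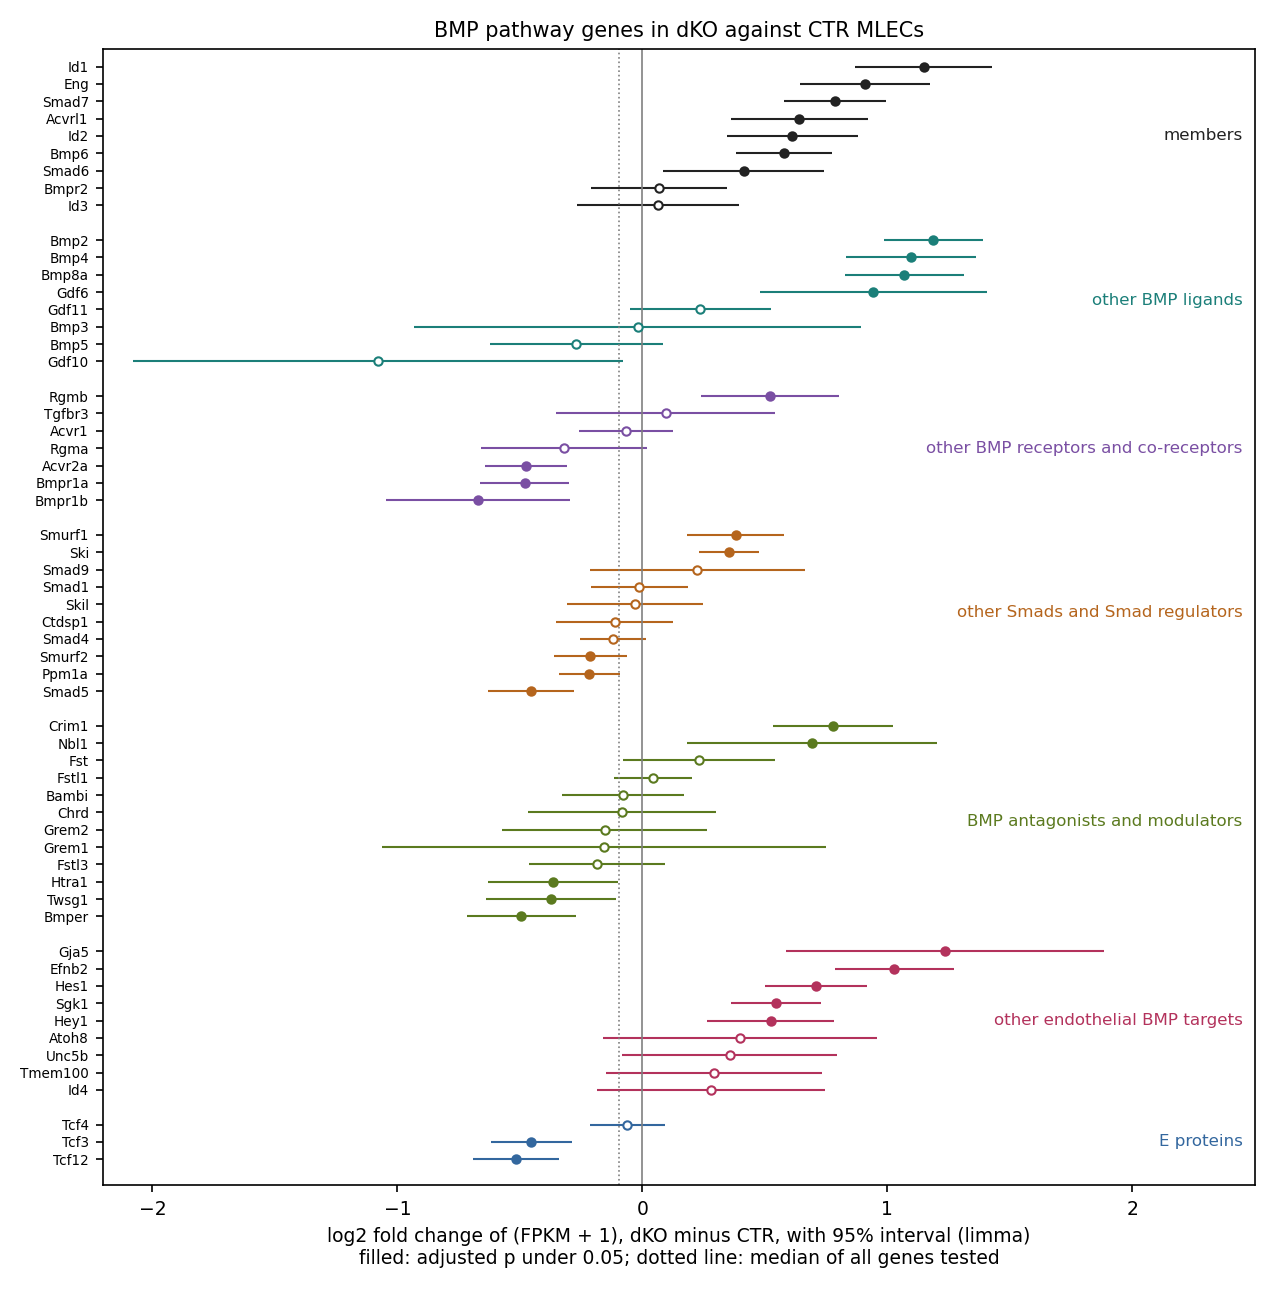
Log2 fold change of (FPKM + 1) between dKO and CTR MLECs, with its 95% interval from limma, for the 9 tested members and the 49 tested genes of 6 pathway lists. Filled points passed an adjusted p of 0.05, open points did not, and the dotted line is the median of all genes tested (−0.10). The members and the lists of ligands and targets hold called genes to the right of 0 only, whereas the receptors, Smads and antagonists hold called genes on both sides and the E proteins to the left only.

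Since all 11 endothelial markers were higher in dKO MLECs, the members were also expressed per library as a ratio to the geometric mean of these markers, which was 11.4 to 18.7 FPKM in CTR and 21.9 to 30.5 FPKM in dKO. This measure was added after the data had been seen and was not tested. On it, Bmpr2 was at 0.683 to 1.04 in CTR and 0.339 to 0.659 in dKO, and Id3 was at 9.93 to 12.8 in CTR and 4.56 to 7.33 in dKO, so that for both all 6 dKO libraries were below all CTR libraries. The marker mean itself was higher in all 6 dKO libraries than in any CTR library. A gene of unchanged FPKM, as Bmpr2 and Id3 nearly were, therefore comes out lower on this ratio. The share of all genes that do so was not computed. Smad6 and Id2 each had 4 dKO libraries below all CTR libraries and none above.

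Smad7, Id1 and Bmp6 had no dKO library outside the CTR range of this ratio, but single CTR libraries set the range. For Id1, the median was 1.36 in CTR and 1.76 in dKO, and without CTR replicate 1, at 2.13, 5 of the 6 dKO libraries were above all other CTR libraries. Without CTR replicate 4, 3 dKO libraries were below all other CTR libraries for Bmp6 and 1 for Smad7. Eng had 1 dKO library above the CTR range and 0 below, or 3 below without CTR replicate 4, and Acvrl1 had 1 above and 3 below. Gdf3 remained above, at 0 to 0.00212 in CTR and 0.0267 to 0.124 in dKO. Between the groups, the 7 called members and the endothelial markers were both higher in dKO. Within a group, the libraries with the highest or lowest values were those of the markers in some cases and not in others. Acvrl1, Smad6 and Id2 were highest among CTR libraries in replicate 4, where the marker mean of 18.7 FPKM was the highest. Acvrl1 was also lowest in CTR replicate 6, which had the lowest marker mean. Smad6 and Smad7 were highest among dKO libraries in replicate 4, where the marker mean of 30.5 FPKM was the highest. In the other direction, Acvrl1 was lowest among dKO libraries in replicate 5, where the marker mean of 30.0 FPKM was the second highest. Smad7 and Id1 were highest among CTR libraries in replicates 6 and 1, where the marker means of 11.4 and 11.8 FPKM were the lowest. These single libraries are named as a description, and nothing is read from them. The part of endothelial cells in the members' levels was not tested.

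**Figure D4:**
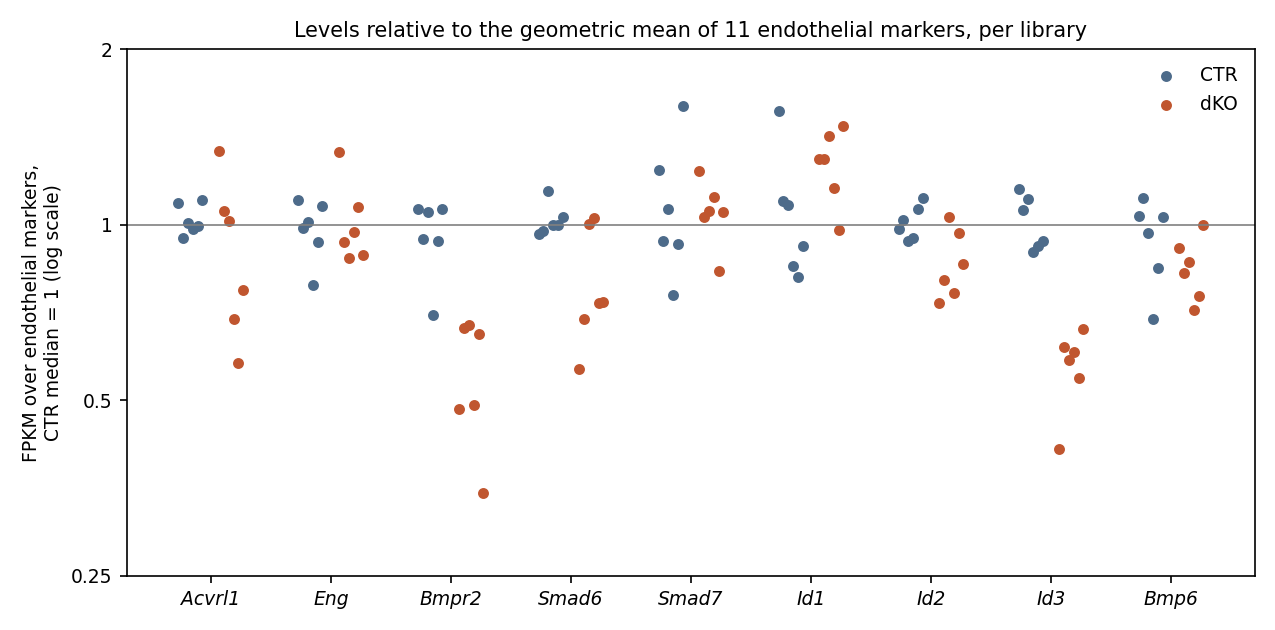
FPKM of each tested member divided by the geometric mean of 11 endothelial markers in the same library and set to a CTR median of 1, on a log scale, with 6 CTR (blue) and 6 dKO (orange) libraries per gene. The dKO points of Bmpr2 and Id3 lie below all CTR points, and those of Smad7, Id1 and Bmp6 lie within the CTR range, which for Id1 is set at its upper end by CTR replicate 1 alone. The marker mean was higher in every dKO library than in any CTR library, so a gene of unchanged FPKM comes out lower here.

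The tested genes with the pattern most like that of Acvrl1 over the 12 libraries were Trim16 and Fam210b, at root mean square distances of 0.112 and 0.130 between centred log2(FPKM + 1) values. For Id1 they were Cox6b2 at 0.101 and S100a10 at 0.119. For Gdf3 they were Ctsb, which encodes the lysosomal protease cathepsin B, at 0.172 and Lgmn, which encodes legumain, at 0.186. Ctsb was at a mean of 312 FPKM in CTR and 840 FPKM in dKO, and Lgmn at 168 and 387 FPKM. For Gdf3 the likeness rests largely on the pseudocount of 1, which shrinks its difference from values near 0 in CTR, and on the near absence in CTR for which it was picked. None of these genes belongs to the BMP lists, and the distances are given as a description.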

How the data were processed

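RNA-seq values of MLECs from 6 CTR and 6 dKO libraries were used. The authors trimmed the reads with Trimmomatic, aligned them with STAR to mm39, kept uniquely aligned reads with sambamba and deposited FPKM values, while the submitters' processing notes name Bowtie2 2.2.3, HISAT2 2.1.0, TopHat2 and DESeq2. The labels' extract protocol speaks of retinas, and the labels and the study's methods of lung endothelial cells. The counting program, annotation and strand setting are not given in the sources used here. The knockout columns are named after tamoxifen and were assigned because the others match the controls.

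Symbols, positions and promoters came from GENCODE vM39 (GRCm39), which matched 27706 of 28689 genes (96.6%). Whole fragments, to a tolerance of 0.02, were recovered from the FPKM of all 28689 genes. The annotated exon length was taken where it made every value whole and every value above 0 at least 1, in only 9335 genes. For the other genes the shortest length that did so was taken. Over 30 pairs of libraries within a group, chi-square per degree of freedom was at least 11.3, so none repeats another. Tests used limma 3.58.1 in R 4.3.3 (lmFit, eBayes with trend) on log2(FPKM + 1), which understates the change of low genes, without covariates. Other steps used Python 3.11.15, and a BLAST 2.17.0 search found 0 other genes with 150 bases at 95% identity to a member. The scripts were tested on simulated data.

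The members and lists were chosen with earlier results of these data known. Named in the text are all members, Sp1 and Sp3, up to 3 called genes per direction with the largest fold change in each pathway list, the most abundant gene of each marker list it cites, and the 2 genes nearest to Acvrl1, Id1 and Gdf3. Outside this rule, Smad1, Smad4, Tcf4, Gdf2, Gdf10, Bmp10, Nanog, Dppa3, Fpgs, Txndc5, Mki67, Upk1b, Rgs5, C1qc and the low genes of the closing section were named after their values were seen. Alternatives were pseudocounts of 0.1 and 0.01, other filters, TPM, median-of-ratios scaling, limma-voom, robust eBayes, array weights, a replicate block and leaving out each library. The Gdf3 ratio without each library, levels relative to endothelial markers (also without each CTR library) and pathway counts without Bmp8a were added after seeing the data.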

Additional observations from a re-analysis of the deposited data

Results flagged for a closer look

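In each of 3 members, 1 CTR library stood apart from the other 5 by Dixon's criterion at the 95% level for 6 samples. Acvrl1 was at 21.5 FPKM in CTR replicate 4, while the other CTR libraries were at 14.8 to 17.0 FPKM. Smad7 was at 7.26 FPKM in CTR replicate 6, against 5.38 to 5.83 FPKM in the others. Bmp6 was at 3.55 FPKM in CTR replicate 2, against 2.47 to 2.71 FPKM in the others. In each case the library stood on the side of the dKO libraries, and the gene was called higher in dKO with and without it. Among 20 groups examined, chance alone flags about 1. As a ratio to the endothelial marker mean, Acvrl1 in CTR replicate 4 was at 1.15, within the 1.11 to 1.29 of the other CTR libraries. Smad7 in CTR replicate 6 was at 0.635, above the 0.301 to 0.493 of the others. Bmp6 in CTR replicate 2 was at 0.233, above the 0.144 to 0.216 of the others.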

How the results depend on the processing

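Acvrl1, Eng, Smad7, Id1, Id2 and Bmp6 were called higher in dKO in every alternative fit in which they were tested, with log2 fold changes between 0.50 and 1.23. The number of members called was 5 (of 7 tested, as Smad6 and Bmp6 dropped out) with a filter of 5 FPKM, 6 without a filter and with TPM, 6 to 7 on leaving out each library, and 7 in the other fits. The call of Smad6 was lost without a filter (adjusted p = 0.0725 from limma), with TPM (0.0552) and without CTR replicates 1, 2, 3, 5 or 6 or dKO replicates 3, 4, 5 or 6. Bmpr2 changed sign to −0.020 without dKO replicate 5 (range on leaving out each library −0.020 to 0.17), and Id3 to −0.015 without CTR replicate 6 and to −0.0022 without dKO replicate 4 (range −0.015 to 0.18), neither being called in any fit. Pathway genes called numbered 21 to 29 over all fits (23 to 26 on leaving out each library). Over all genes, 6614 were called, against 4222 of 7891 with a filter of 5 FPKM, where fewer genes were tested, and 6609 with limma-voom on recovered fragments. With the replicate number as a block, 7 members and 28 pathway genes were called. Same-numbered libraries deviated together with correlations of −0.11 to 0.57, 4 of 12 libraries correlated best with their own number, and the numbers were not taken as pairs. In exact two-sided permutation tests, not adjusted, p was 0.00216 for Eng, Smad7, Id1, Id2 and Bmp6, the smallest that 924 splits allow, 0.00433 for Acvrl1, 0.0281 for Smad6, 0.63 for Bmpr2 and 0.712 for Id3. Depth limits Gdf3 in CTR, where 3 fragments carry the ratio.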

Other observations

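Of the 64 other pathway genes, 15 were below the abundance needed for the test. The dKO mean was higher for 11 of them and lower for 4, and all dKO libraries lay above all CTR libraries for 4, below them for 0, and overlapped with them for 11. The same shares over all untested genes were not computed, so these counts are a description only. The genes named here were picked after their values were seen. The Notch and BMP target Hey2 was at 0.150 to 0.425 FPKM in CTR and 0.481 to 1.08 FPKM in dKO, and the homeobox target Msx1 was at 0.185 to 0.550 FPKM in CTR and 0.564 to 1.12 FPKM in dKO. The ligand Gdf7 was at 0 to 0.201 FPKM in CTR and 0.272 to 1.04 FPKM in dKO, with 15 fragments in CTR and 70 in dKO libraries in all. For these 3 genes, and for Gdf2, all dKO libraries were above all CTR libraries. Bmp7, another ligand, was at 0.0291 to 0.25 FPKM in CTR and 0.198 to 0.867 FPKM in dKO, with 5 of 6 dKO libraries above all CTR libraries. In the other direction, the type II receptor Acvr2b was at 0.509 to 1.22 FPKM in CTR and 0.279 to 0.611 FPKM in dKO, with 4 of 6 dKO libraries below all CTR libraries. The co-receptors Hjv and Cripto had 17 and 16 fragments in CTR and 3 each in dKO libraries in all, with overlap between the groups. These values are given without a test.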
